A study of Drosophila melanogaster with 7 samples.

Results

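Eye imaginal discs carrying the sevS11 form of the sevenless gene (sev) were compared directly with discs carrying the sevd2 allele, gene by gene, on 2-colour microarrays. Imaginal discs are the larval epithelia from which adult structures form, and the eye disc gives rise to the compound eye of Drosophila melanogaster. Every array set mutant RNA against 1 common pool of RNA from w1118;+;+ discs, so the pool cancels in the difference between the genotypes. There were 4 arrays of sevd2, a dye-swapped pair for each of 2 RNA extractions, and 3 arrays of sevS11, a dye-swapped pair for extraction 1 (replicates 1 and 2) and a single array without a swap for extraction 2 (replicate 3). All flies were kept on the same food at one temperature and received no treatment. From general knowledge, sevd2 removes the function of the receptor and sevS11 encodes a receptor that signals without its ligand. The construct and promoter behind sevS11, the larval stage, the sex, the number of discs and whether the extractions came from separate animals are not given in the labels, so p-values measure only how far extractions differ, and that spread may be technical. The labels name the pool as eye discs in one field and as wing discs in another. This does not touch a difference between genotypes, but any position above, below or near the pool depends on which discs it held.

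The comparison covered the 3586 genes with a value in all 4 extractions, out of 5971 genes with a value on any array. Values are log2 ratios, likely of mutant over pool. That direction was taken from the sign of the sev ratios, positive in sevS11 and negative in sevd2, so sev itself does not check the labels, and if the ratios ran the other way every difference below would change its sign. Single-array values are given as deposited. The value of sevS11 extraction 2 that enters the differences had the per-gene effect of the dyes removed. Where a gene had a value on a single array of a swapped pair, that value was used uncorrected, so its difference may hold a dye effect. A difference is the mean of 2 sevS11 extractions minus the mean of 2 sevd2 extractions, with the standard error (SE) of a limma fit across all genes, and passed at a Benjamini-Hochberg adjusted p under 0.05.

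Sevenless is a receptor tyrosine kinase found in the eye disc. It is bound by Bride of sevenless on the neighbouring R8 photoreceptor and acts through the adaptor Drk, Ras and the MAP kinase cascade. In the R7 precursor this leads to removal of the repressor Tramtrack by Phyllopod and Sina, and the cell becomes the R7 photoreceptor. Without Sevenless that cell becomes a cone cell, and with an activated receptor other cells of the cluster can become R7 cells.

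The sevS11 extractions differed from each other about as much as the genotypes did. Across the 3586 genes the median absolute difference was 0.258 between the sevS11 extractions and 0.089 between the sevd2 extractions. Extraction 1 of sevS11 stood 0.289 and 0.269 from the sevd2 extractions, while extraction 2 of sevS11 stood closer to them, at 0.164 and 0.170. As a description across genes that share the pool, sevS11 extraction 2 correlated at 0.451 with its own genotype's extraction 1 and at 0.432 and 0.360 with the sevd2 extractions, while the sevd2 extractions correlated at 0.725. Many of the results below are therefore also given without a sevS11 extraction. The arrays held values for 4701 to 7009 probes, and their small number limits the precision.

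The sev transcript had the largest difference of all tested genes. On the sevS11 arrays its ratio was 1.81 and 1.90 in extraction 1 and 4.33 in extraction 2, and on the sevd2 arrays it was -0.46, -0.17 and -0.41, with no value on replicate 4. No sevS11 array came near a sevd2 array, but the sevS11 extractions lay far apart. The difference of 3.50 ± 0.77 (SE, n = 2 extractions a genotype) did not pass (limma, adjusted p = 0.187), and it was 2.21 without sevS11 extraction 2 and 4.84 without extraction 1. The position of the sev probe on the gene is not given here, so it cannot be said whether either allele alters the stretch it detects.

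Only 2 of the 3586 genes passed, 0.0558% of those tested, and both encode prophenoloxidases and were higher in sevS11. At an adjusted p under 0.1 the count was 24 (0.669%), 15 higher and 9 lower. The unadjusted p was under 0.05 for 457 genes (12.7%), with 201 higher (5.61%) and 256 lower (7.14%) in sevS11. Differences of all tested genes lay above 0 in 1714 and below 0 in 1872. A difference of at least 1 on the log2 scale, a doubling, was found for 43 genes (1.2%), of which 27 (0.753%) were higher and 16 (0.446%) lower. The arrays of these 43 genes did not overlap between the genotypes. The same held for 1152 genes overall (32.1%), 500 (13.9%) with sevS11 higher and 652 (18.2%) with sevS11 lower. In 13 genes (0.363%) each sevS11 extraction lay at least 1 above each sevd2 extraction. In 4 genes (0.112%), CG6959, CG15905, dmGlut and Sfxn2, each lay at least 1 below. Extractions did not overlap in 1755 genes (48.9%). The count of 2 became 1516 without sevS11 extraction 2 (replicate 3), 346 without sevS11 extraction 1, and 4 and 28 without sevd2 extractions 1 and 2. Such fits leave 1 extraction in a genotype and assume that it varies like the other genotype's.

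**Figure D1:**
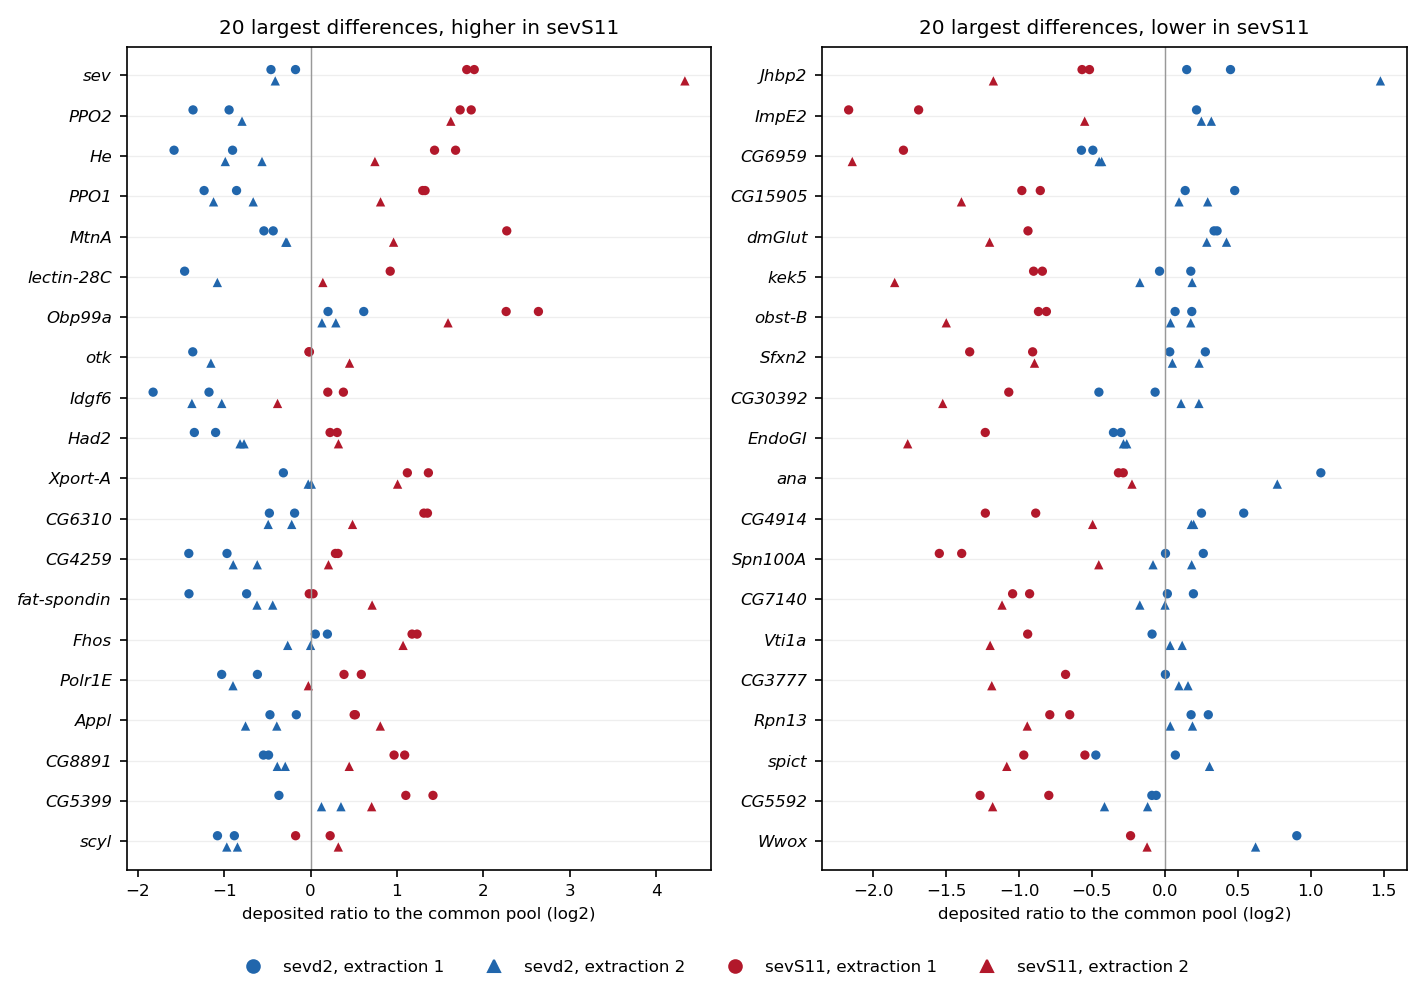
Deposited log2 ratio to the common pool on each array (x axis) for the 20 largest differences in each direction among genes whose arrays did not overlap (y axis), sevS11 in red and sevd2 in blue, circles for extraction 1 and triangles for extraction 2. The sev ratio reached 4.33 on the single array of sevS11 extraction 2 and 1.81 and 1.90 in extraction 1, while the PPO2 ratios of the sevS11 arrays lay together between 1.62 and 1.86.

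The genes that were at least 1 apart reached that difference in several ways. Taking a genotype mean of 0.5 or more from the pool as away from it, 15 of the 27 higher genes were away in sevS11 alone, 8 in sevd2 alone, and 4 in both with opposite signs. The 4 were PPO1, PPO2, He and lectin-28C, all above the pool in sevS11 and below it in sevd2. Of the 16 lower genes 14 were away from the pool in sevS11 alone, ana in sevd2 alone, and Jhbp2 in both. These groupings were read from the same values as the differences and are a description. They also depend on the tissue of the pool, which the labels leave unclear. The cut was the same for both genotypes, though the sevS11 arrays spread more. Their median absolute ratios were 0.206 to 0.288, against 0.117 to 0.168 on the sevd2 arrays. CG6959, counted as away in sevS11 alone, had a sevd2 mean of -0.487, just inside the cut.

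**Figure D2:**
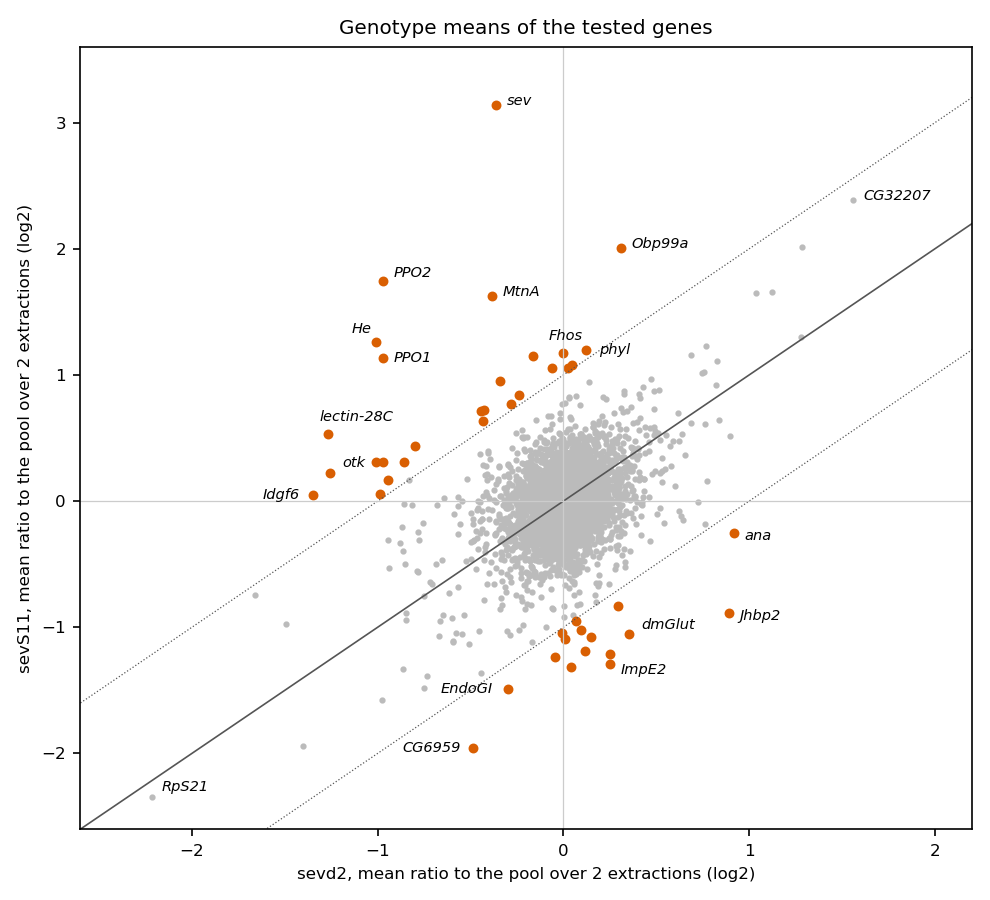
Mean log2 ratio to the pool over 2 extractions in sevd2 (x axis) and sevS11 (y axis) for each tested gene, with genes at least 1 apart in orange, the line of equality solid and lines 1 above and below it dotted. PPO1, PPO2 and He lie left of 0 and above 0, at -0.97, -0.97 and -1.01 in sevd2 and 1.13, 1.75 and 1.26 in sevS11.

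The 2 genes that passed are expressed in blood cells. Prophenoloxidases are the melanin-forming enzymes of crystal cells, a class of larval blood cell. PPO2 stood at 1.86, 1.73 and 1.62 on the sevS11 arrays and at -1.36, -0.94 and -0.79 on the sevd2 arrays with a value. Every sevS11 array lay more than 2 above every sevd2 array, and the sevS11 extractions were alike. The difference was 2.72 ± 0.17, a 6.58-fold higher ratio (n = 2 extractions a genotype; limma, adjusted p = 0.0180).

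PPO1 stood at 1.30, 1.33 and 0.81 on the sevS11 arrays and at -1.23, -0.86, -1.12 and -0.66 on the sevd2 arrays. The genotypes were again far apart, with the lowest sevS11 value in extraction 2. The difference was 2.10 ± 0.17, or 4.29-fold (limma, adjusted p = 0.0429), and this call was narrow, since it ended without the dye correction at 2.03 (limma, adjusted p = 0.145) and with only the dye effect of the sevS11 pair at 2.04 (limma, adjusted p = 0.086). Leaving out sevS11 replicate 2 (2.23), or replicate 1 (2.06) or 3 (2.02) of sevd2, also ended it. He, which encodes Hemese, a surface protein of blood cells, stood at 1.44, 1.68 and 0.75 in sevS11 and at -1.58, -0.90, -0.99 and -0.56 in sevd2. Its difference of 2.27 ± 0.26 did not pass (limma, adjusted p = 0.0815). In RNA of whole discs more blood cells and more RNA per blood cell cannot be told apart.

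Markers of blood cells beyond PPO1 and PPO2 did not all lie on the same side. Plasmatocytes are the phagocytic blood cells that also deposit basement membrane. Of 9 tested plasmatocyte genes, with He from above counted among them, 0 passed, and 8 differences lay above 0 and 1 below. The median was 0.11, against -0.015 over all tested genes. That median was 0.45 without sevS11 extraction 2, 0.42 without extraction 1, 0.37 without either sevd2 replicate 2 or sevd2 replicate 3, 0.26 without sevd2 replicate 1, 0.32 with scaled arrays and 0.36 with quantile normalisation. The neuropeptide-like precursor gene Nplp2 was at 1.08 ± 0.22, the collagen IV gene Col4a1 at 0.82 ± 0.14 and the matrix protein gene SPARC at 0.54 ± 0.17, while the laminin gene LanB2 was at -0.63 ± 0.14. The scavenger receptor genes NimC1 and crq were both at 0.11. Of the plasmatocyte list 7 genes had a value, but not in every extraction, and were not tested. On the sevS11 arrays Hml stood at 0.66, 0.72 and -0.20 and eater at 0.05, 0.21 and -0.30, without a sevd2 value. LanB1 stood there at 0.17, 0.11 and 0.82, and at 0.26 on sevd2 replicate 3. In sevS11 Pxn had 0.26 and -0.09, srp 0.08 and -0.09, Sr-CI 0.32 and vkg 0.04. Of these only srp had a sevd2 value, -0.03. The crystal cell gene lz, also not tested, stood at 0.62 on sevS11 replicate 3 and 0.43 on sevd2 replicate 1. Among lamellocyte genes, which mark the flattened blood cells of encapsulation, msn was at -0.06 and cher at -0.11, which became 0.02 with quantile normalisation. The median ratio of the plasmatocyte list was 0.03 and 0.11 in the sevS11 extractions and -0.29 and -0.31 in the sevd2 extractions, and the part of blood cell number in the PPO1 and PPO2 results was not tested. Fat body tissue, another possible companion of dissected discs, was represented by Lsp2 alone, at 0.20 ± 0.17 with overlapping arrays, and muscle by Prm, at 0.10 ± 0.14.

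**Figure D3:**
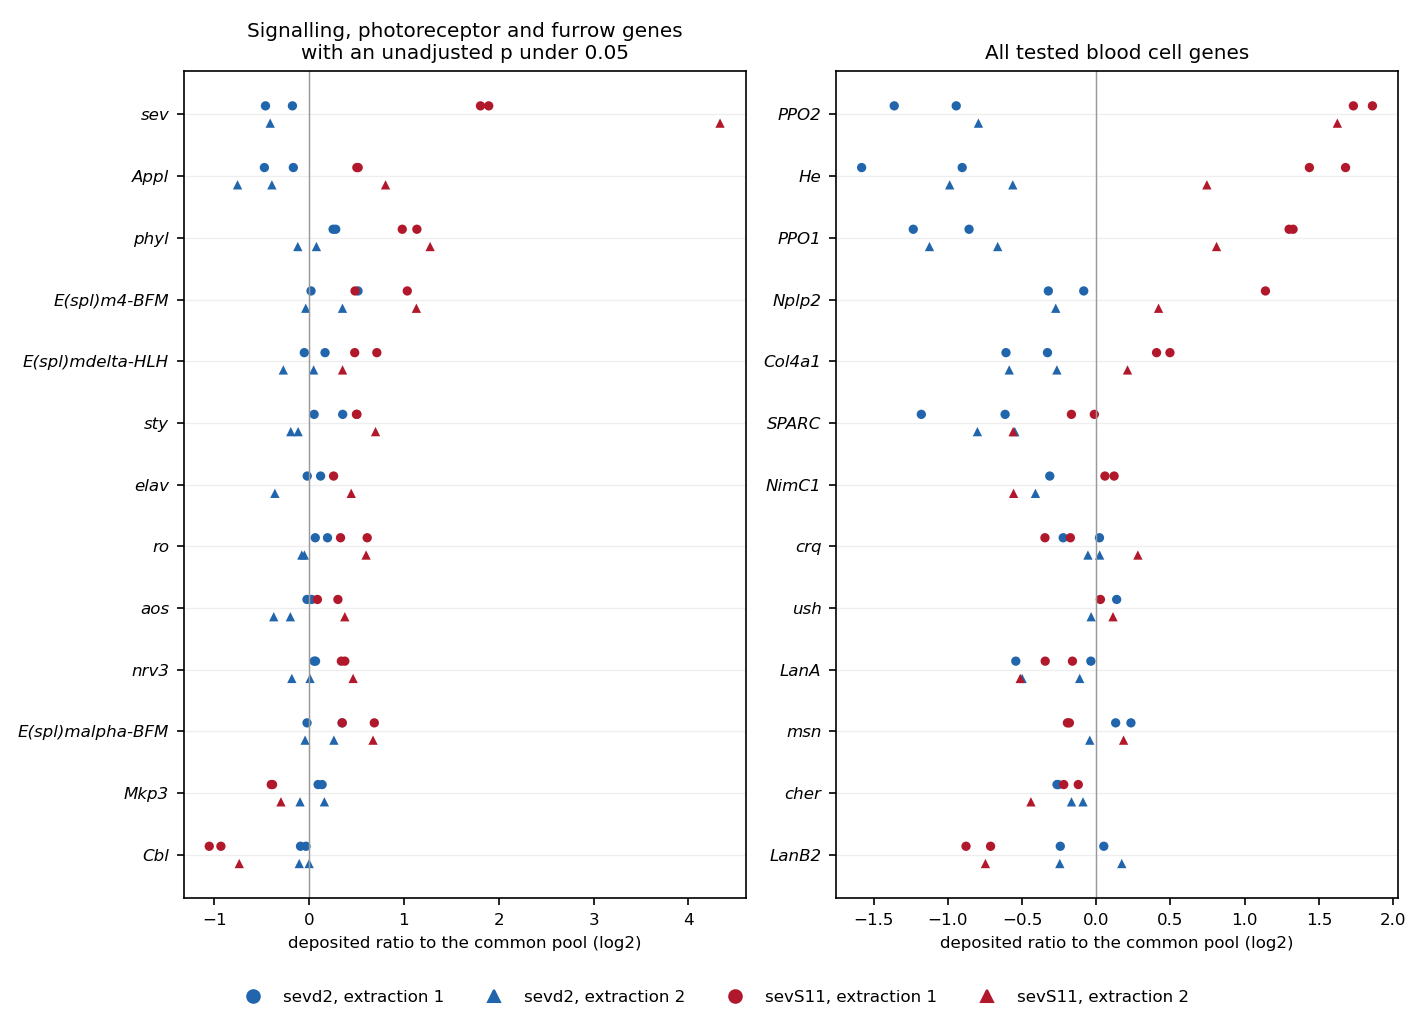
Deposited log2 ratio to the pool on each array (x axis) for signalling, photoreceptor and furrow genes with an unadjusted p under 0.05 (left) and for all tested blood cell genes (right), sevS11 in red and sevd2 in blue, circles for extraction 1 and triangles for extraction 2. The genotypes are separate for PPO1, PPO2, He, Nplp2 and Col4a1 and overlap for most other blood cell genes, with LanB2 lower in sevS11.

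Beyond sev, 2 other tested members of the Sevenless pathway had an unadjusted p under 0.05. They were phyl, higher, and Cbl, lower, against 5.61% and 7.14% of all tested genes, and neither passed after adjustment. The phyl gene encodes Phyllopod, the adaptor that brings Tramtrack to its ubiquitin ligase and is induced by the pathway in R1, R6 and R7. It stood at 0.98, 1.14 and 1.28 in sevS11 and at 0.25, 0.28, -0.12 and 0.08 in sevd2. All sevS11 arrays lay above all sevd2 arrays, and the extractions of sevS11 were alike. The difference was 1.08 ± 0.18, or 2.11-fold (limma, adjusted p = 0.115).

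Cbl, a ubiquitin ligase that promotes removal of activated receptor tyrosine kinases, lay the other way. Its ratio was -0.93, -1.05 and -0.73 in sevS11 and between -0.10 and 0.00 on the sevd2 arrays. The sevd2 arrays stayed at the level of the pool. The difference was -0.80 ± 0.15 (limma, adjusted p = 0.148), and it was -0.93 and -0.64 without sevS11 extraction 2 and extraction 1.

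The remaining 7 tested members lay close to 0. The Tramtrack-degradation partners ebi and sina were at -0.22 and -0.02, the adaptor genes drk and dos at -0.01 and -0.16, the phosphatase gene csw at 0.00, the MAP kinase kinase gene Dsor1 at 0.03 and the scaffold gene cnk at 0.05. Over the 10 members 0 passed, and the median of -0.004 was -0.23 without sevS11 extraction 2 and 0.25 without extraction 1, each over 11 genes. The list was thus headed by sev and phyl, with Cbl at its other end.

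A further list held genes of signalling by the related epidermal growth factor receptor and the MAP kinase cascade. Its members, among them ligands, the receptor and inhibitors that the signalling itself switches on, lay on both sides of 0. Of 10 tested genes 0 passed, and 2 were higher and 1 lower at an unadjusted p under 0.05, against 5.61% and 7.14% of all tested genes. The feedback inhibitor gene sty (Sprouty) stood at 0.50, 0.51 and 0.70 in sevS11 and between -0.19 and 0.36 in sevd2, a difference of 0.55 ± 0.17 (limma, adjusted p = 0.291) that was 0.36 without sevd2 extraction 2. The secreted inhibitor gene aos (Argos) stood at 0.09, 0.31 and 0.38 against -0.37 to 0.03, a difference of 0.46 ± 0.17 (limma, adjusted p = 0.350). For both genes all sevS11 arrays lay above all sevd2 arrays, by a narrow margin. The MAP kinase phosphatase gene Mkp3 was lower, at -0.39 ± 0.14 (limma, adjusted p = 0.339), and the ligand genes spi and Krn and the receptor gene Egfr were at 0.11, 0.03 and -0.10.

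Photoreceptor genes were mixed. Of 6 tested genes of photoreceptor and neuronal differentiation 0 passed, and 3 were higher at an unadjusted p under 0.05, against 5.61% of all tested genes. Appl, the neuronal homologue of the amyloid precursor protein, stood at 0.50, 0.52 and 0.81 in sevS11 and between -0.75 and -0.16 in sevd2. It was above the pool in sevS11 and below it in sevd2 on every array, with a difference of 1.16 ± 0.19 or 2.24-fold (limma, adjusted p = 0.115). The pan-neuronal RNA-binding protein gene elav differed by 0.54 ± 0.19 (0.34 without sevd2 extraction 2) and nrv3, a subunit of the neuronal sodium pump, by 0.44 ± 0.14. The photoreceptor surface protein gene chp and the secretion gene Rop were at -0.19 and -0.34. The median of the list, 0.13, was -0.26 without sevd2 replicate 3, -0.21 without sevS11 replicate 1 and 0.47 without sevS11 replicate 2, each over 5 genes, and 0.22 without sevd2 extraction 1. It was 0.29 without sevS11 extraction 1 and 0.05 without extraction 2. The value of Rop was -0.15 with scaled arrays and -0.18 with quantile normalisation or without sevS11 extraction 1.

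Xport-A, which encodes a chaperone needed to bring rhodopsin and the TRP channel to the photoreceptor membrane, was among the largest differences. It stood at 1.12, 1.36 and 1.01 in sevS11 and at -0.31, 0.01 and -0.03 in sevd2. The arrays of the genotypes did not overlap, and the difference of 1.31 ± 0.17 did not pass (limma, adjusted p = 0.0938). Among 4 tested genes of photoreceptor fate, which include phyl, ro was higher by 0.47 ± 0.14 (limma, adjusted p = 0.277), while B-H2 and oc were at 0.06 and -0.13. The homeobox gene ro acts in R2 and R5, and B-H2 in R1 and R6.

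Genes of the morphogenetic furrow, the front of differentiation that sweeps over the eye disc, were examined in 1 list with targets of Notch. Of the 15 tested members 11 lay above 0 and 4 below, the median was 0.21 and 0 passed. Highest was E(spl)m4-BFM, of the Bearded family, at 1.04, 0.49 and 1.13 in sevS11 and between -0.03 and 0.52 in sevd2. Its arrays overlapped, and the difference was 0.61 ± 0.14 (limma, adjusted p = 0.198), or 0.37 with scaled arrays and 0.38 with quantile normalisation. E(spl)mdelta-HLH, a repressor of the Enhancer of split complex that acts in photoreceptor clusters, stood at 0.48, 0.72 and 0.35 against -0.27 to 0.17, a difference of 0.57 ± 0.14 (limma, adjusted p = 0.228). The proneural gene ato, which sets up R8, was at 0.16 and hh, which drives the furrow, at 0.36. The list median was 0.02 without sevS11 extraction 2, 0.22 without extraction 1 and 0.11 with scaled arrays.

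Genes of eye identity had values in both genotypes. Of the retinal determination genes, the transcription factors that specify the eye field, 10 were tested, 0 passed and 0 had an unadjusted p under 0.05. The largest differences were those of eyg (-0.41 ± 0.17, and -0.27 without sevS11 extraction 2) and so (-0.34 ± 0.15), and ey, eya and dac were at 0.17, 0.08 and 0.07. The wing disc genes had 0 members with a value in every extraction. A ratio carries no level, so these genes were only found to have values. In the part of the disc that forms the antenna, Dll was at 0.14, a sign that turned to -0.03 with scaled arrays and -0.01 with quantile normalisation. The glial genes loco, Gli and repo were at -0.23, -0.17 and -0.13, with overlapping arrays.

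Among genes of membrane transport, dmGlut and Sfxn2 had the lowest values in sevS11 relative to sevd2. The gene dmGlut, a member of the glutamate transporter family, stood at -0.94 and -1.20 on the sevS11 arrays with a value and between 0.29 and 0.42 on the sevd2 arrays. Both genotypes were tight and on opposite sides of the pool. The difference was -1.40 ± 0.15 (limma, adjusted p = 0.0815), the lowest p after PPO1 and PPO2. Sfxn2, a mitochondrial carrier of the sideroflexin family, stood at -0.91, -1.34 and -0.89 against 0.03 to 0.28, a difference of -1.23 ± 0.13 (limma, adjusted p = 0.0815). The sodium/proton exchanger gene Nhe2 was at -0.65 ± 0.19, which was -0.14 with scaled arrays and -0.42 with quantile normalisation. Of 18 tested transporter genes 0 passed, 8 lay above 0 and 10 below, and 3 were lower and 0 higher at an unadjusted p under 0.05, against 7.14% and 5.61% of all tested genes. The list was chosen with earlier results of these data known, so its counts are a description.

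CG6959 behaved like dmGlut but was below the pool in both genotypes. It stood at -1.79 and -2.14 in sevS11 and between -0.57 and -0.43 in sevd2, a difference of -1.47 ± 0.16 (limma, adjusted p = 0.0815) that was -0.90 with scaled arrays. CG15905 stood at -0.85, -0.98 and -1.39 against 0.10 to 0.48, a difference of -1.46 ± 0.22 (limma, adjusted p = 0.0938). Both genes are named here by identifier, as the annotation gives no other symbol.

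**Figure D4:**
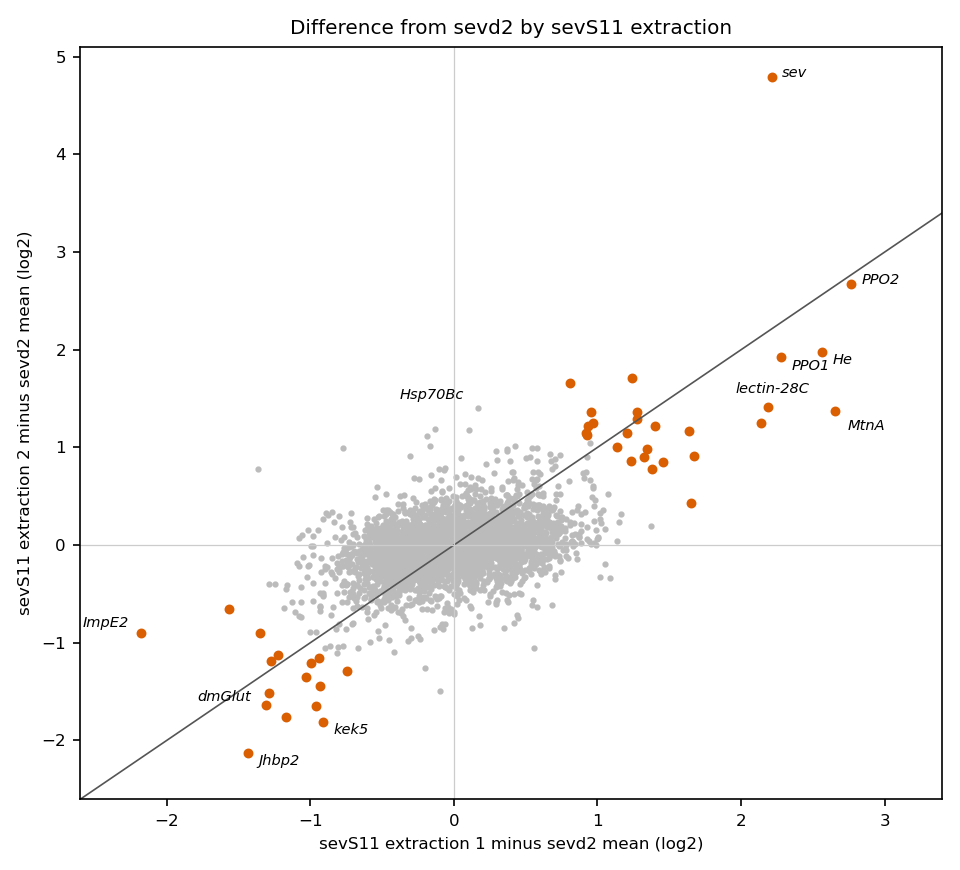
Difference from the sevd2 mean of each tested gene in sevS11 extraction 1 (x axis) and sevS11 extraction 2 after removal of the dye effect (y axis), in log2 units, with the line of equality solid and genes whose overall difference is at least 1 in orange. PPO1, PPO2 and dmGlut lie near the line, while sev lies above it and MtnA and ImpE2 have larger differences in extraction 1.

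Among the tested adhesion and guidance genes, otk was the highest in sevS11 relative to sevd2 and kek5 the lowest. The receptor pseudokinase gene otk (Off-track), which acts in axon guidance and Wnt signalling, stood at -0.02, -0.01 and 0.45 in sevS11 and at -1.36 and -1.15 on the sevd2 arrays with a value. Here sevd2 lay away from the pool and sevS11 near it, with a difference of 1.48 ± 0.20 (limma, adjusted p = 0.0938). Both sevd2 values came from arrays with the mutant in Cy3 and were used uncorrected, so the difference may hold a dye effect. The dye effect estimated for otk, from the sevS11 pair alone, was -0.003. The kekkon family gene kek5, a transmembrane protein with leucine-rich repeats, stood at -0.84, -0.90 and -1.85 against -0.17 to 0.19. The difference of -1.36 ± 0.29 (limma, adjusted p = 0.182) was -0.91 without sevS11 extraction 2 and -1.75 without extraction 1. Of 19 tested adhesion and guidance genes 6 lay above 0 and 13 below and 0 passed. At an unadjusted p under 0.05, 2 were higher and 2 lower, against 5.61% and 7.14% of all tested genes. The list median of -0.18 was -0.35 without sevS11 extraction 2 and 0.07 without extraction 1, and -0.08 without either sevd2 extraction.

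Secreted binding proteins lay mostly higher in sevS11. The odorant-binding protein gene Obp99a stood at 2.26, 2.64 and 1.59 in sevS11 and between 0.13 and 0.62 in sevd2. It was above the pool on every array of both genotypes, and the difference was 1.69 ± 0.30 or 3.24-fold (limma, adjusted p = 0.131), or 1.07 with scaled arrays. The sugar-binding lectin-28C stood at 0.92 and 0.14 in sevS11 and at -1.46 and -1.08 in sevd2, a difference of 1.80 ± 0.29 (limma, adjusted p = 0.115). Its sevd2 values both came from arrays with the mutant in Cy3, and the gene had no estimate of the dye effect. The sterol-binding protein gene Npc2a was at 1.05 ± 0.19. The juvenile hormone-binding protein gene Jhbp2 lay the other way at -0.57, -0.52 and -1.18 against 0.45, 0.15 and 1.48. Its sevd2 extractions were far apart, and the difference of -1.78 ± 0.42 (limma, adjusted p = 0.212) was -2.32 with sevd2 extraction 1 left out and -1.19 with extraction 2 left out. Over the 6 tested members of this list 0 passed, and 4 were higher and 1 lower at an unadjusted p under 0.05, against 5.61% and 7.14% of all tested genes. Because the list was chosen with earlier results of these data known, the counts may reflect that choice.

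Chitin-related genes lay on both sides of 0. The chitinase-like growth factors Idgf6 and Idgf4, secreted proteins that promote growth of disc cells in culture, were higher in sevS11, at 1.40 ± 0.21 (limma, adjusted p = 0.0938) and 0.46 ± 0.17 (limma, adjusted p = 0.353). Idgf6 stood at 0.20, 0.38 and -0.38 in sevS11 and between -1.82 and -1.03 in sevd2. It was sevd2 that stood away from the pool. The chitin-binding protein gene obst-B was lower, at -0.87, -0.81 and -1.50 against 0.04 to 0.18, a difference of -1.30 ± 0.24 (limma, adjusted p = 0.144). The chitin deacetylase gene verm was at -0.75 ± 0.23, or -0.41 without sevS11 extraction 1 and -0.49 per probe, and the chitin synthase gene kkv at -0.31. Of 13 tested members 0 passed, 4 lay above 0 and 9 below.

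Genes induced by the moulting hormone ecdysone depended on the sevS11 extraction. The ecdysone-inducible gene ImpE2 stood at -1.69 and -2.17 in extraction 1 and at -0.55 in extraction 2, against 0.22 to 0.32 in sevd2. All sevS11 arrays lay below the sevd2 arrays, but the difference of -1.54 ± 0.40 (limma, adjusted p = 0.233) was -2.18 without extraction 2 and -0.77 without extraction 1. ImpE3 was at -0.82 ± 0.19. ImpE1 stood at -0.67 and -0.97 in extraction 1 and 1.48 in extraction 2, on opposite sides of the pool, and its difference was -0.29 ± 0.65. Of 6 tested ecdysone genes 0 passed, and the list median of -0.28 was -0.83 without sevS11 extraction 2 and 0.10 without extraction 1.

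Genes of cell death and stress kinase signalling held 3 members that were lower in sevS11 at an unadjusted p under 0.05, of 10 tested, against 7.14% of all tested genes. This list too was chosen with earlier results of these data known, and the count is a description. The initiator caspase gene Dronc stood at -1.19, -1.25 and -0.92 in sevS11 and between -0.51 and -0.16 in sevd2, a difference of -0.78 ± 0.17 (limma, adjusted p = 0.193). The MAP kinase kinase kinase gene wnd (Wallenda), which acts upstream of JNK, stood at -1.18, -1.32 and -1.53 against -0.61 to -0.32, a difference of -0.92 ± 0.15 (limma, adjusted p = 0.115). EndoGI, which encodes an inhibitor of endonuclease G, was at -1.19 ± 0.20 (limma, adjusted p = 0.115). All 3 were below the pool in both genotypes, and with scaled arrays their differences were -0.43 (Dronc), -0.48 (wnd) and -0.78 (EndoGI). The JNK gene bsk, its phosphatase gene puc and the effector caspase gene Dcp-1 were at -0.05, 0.03 and 0.02, 0 members passed, and the list median of -0.12 was -0.39 without sevS11 extraction 2 and 0.06 without extraction 1.

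Protease inhibitors and detoxification genes held members on both sides of 0. Among 9 tested serpins, which block serine proteases, Spn47C was higher by 0.92 ± 0.20 (1.49 with scaled arrays) and Spn27A, an inhibitor of melanisation and Toll signalling, by 0.47 ± 0.13. Spn100A was at -1.11 ± 0.30, and this was -1.56 without sevS11 extraction 2 and -0.68 without extraction 1. Among 23 detoxification and metal-binding genes the metallothionein gene MtnA stood at 2.27 and 0.96 in sevS11 and between -0.54 and -0.27 in sevd2. Its difference of 2.01 ± 0.40 (limma, adjusted p = 0.171) was 2.66 without sevS11 extraction 2 and 1.37 without extraction 1. The glucuronosyltransferase gene Ugt36D1 was at -0.86 ± 0.17. Neither list held a gene that passed. At an unadjusted p under 0.05, 2 of the 9 serpins were higher and 1 lower. Of the 23 detoxification and metal-binding genes 2 were higher and 2 lower at that threshold. The shares of all tested genes were 5.61% higher and 7.14% lower.

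Ribosomal protein genes lay mostly above 0, by an amount that depended on the sevS11 extraction. Of 48 tested mitochondrial ribosomal protein genes 40 lay above 0 and 8 below, with a median of 0.19 and 0 passing. Among all 3586 tested genes 1714 lay above 0 and 1872 below. At an unadjusted p under 0.05 there were 4, all higher, against 5.61% of all tested genes, and the arrays of 15 lay wholly above the sevd2 arrays, against 13.9%. The highest was mRpL13, at 0.97, 0.95 and 0.64 in sevS11 and between -0.09 and 0.09 in sevd2, a difference of 0.78 ± 0.17 (limma, adjusted p = 0.187). Of 30 cytosolic ribosomal protein genes 22 lay above 0, with a median of 0.24 and 0 passing. Both medians moved with the extraction, since the mitochondrial list was at 0.42 without sevS11 extraction 2 and -0.01 without extraction 1, and the cytosolic list at 0.52 and -0.03. RpS21 was far below the pool in both genotypes, between -2.80 and -1.91 in sevS11 and between -2.63 and -1.65 in sevd2, and the genotypes overlapped.

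Heat shock and cell cycle genes held no gene that passed. Among 9 heat shock and chaperone genes 0 passed and 0 had an unadjusted p under 0.05, and the median was -0.31 without sevS11 extraction 2 and 0.31 without extraction 1. Hsp70Bc, a stress-induced chaperone, stood at -0.15 and -0.32 in sevS11 extraction 1 and at 1.04 in extraction 2, and at -1.16 and -0.96 in sevd2 extraction 1 and 0.36 and 0.13 in extraction 2. Its difference of 0.79 ± 0.54 was 0.17 and 1.43 without sevS11 extractions 2 and 1, and 0.10 and 1.46 without sevd2 extractions 1 and 2. Its extraction means were -1.06 and 0.25 in sevd2 and -0.23 and 1.00 in sevS11. Within each genotype they lay further apart than the genotype means did. Of 15 cell cycle and replication genes 11 lay above 0, 0 passed, the median was 0.09 (0.05 without sevd2 extraction 2), and the highest was aurB, the Aurora B kinase of cytokinesis, at 0.42 ± 0.19, or 0.66 without sevS11 extraction 2 and 0.16 without extraction 1.

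**Figure D5:**
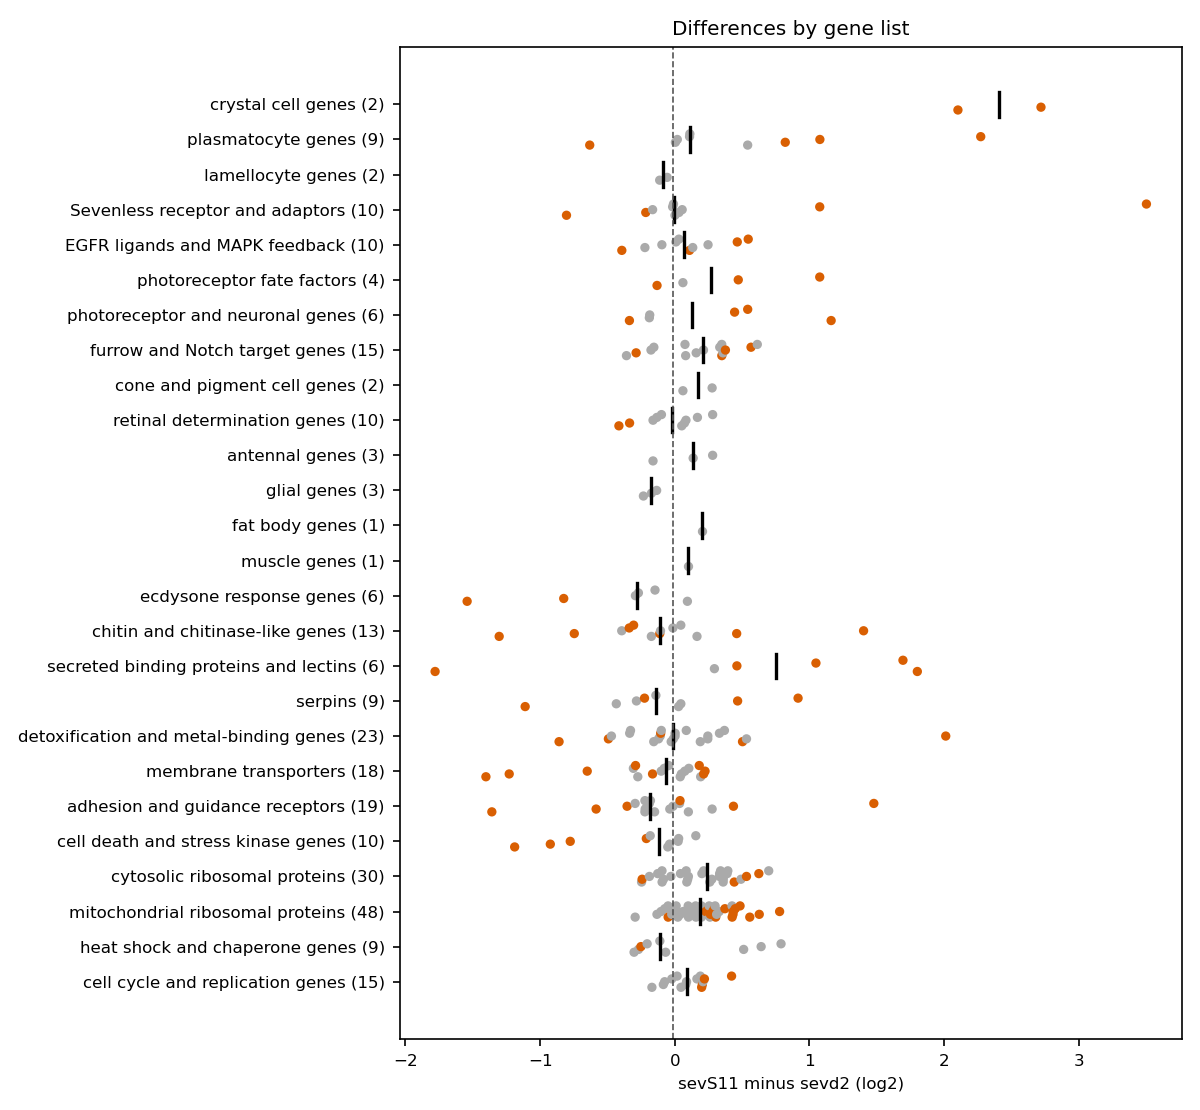
Difference between sevS11 and sevd2 in log2 units (x axis) for the tested members of each gene list (y axis, number of members in brackets), in orange where the arrays of the genotypes did not overlap, with the list median as a black bar and the median of all tested genes, -0.015, as a dashed line. The median of the 2 crystal cell genes is 2.41, and those of the mitochondrial and cytosolic ribosomal protein genes are 0.19 and 0.24.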

How the data were processed

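The authors deposited normalised values per probe for 7 two-channel arrays, taken here as log2 ratios. Per the submitters' processing notes limma was used, whose log ratios are in base 2. Not given in the sources used here are the background correction, normalisation, filter, base and direction. The 16416 probes were named from the platform annotation, with symbols brought up to date from RefSeq's gene table (assembly Release 6 plus ISO1 MT): the gene identifier named 12533 probes and the accession 120, an older symbol was retained for 511, 101 had several genes and 3151 had no entry. Probes were averaged per gene (247 genes had several) and arrays per extraction. The dye effect, the mean over 3 swapped pairs, was subtracted from the unswapped sevS11 array, except in 147 tested genes without an estimate. It was not subtracted where a swapped pair had a value on a single array, as for PPO2 in sevd2 extraction 2. Across genes it correlated at 0.326 with the mean sevd2 ratio, so it may have carried sevd2 signal into sevS11. The 4 extraction means were fitted with limma 3.58.1 in R 4.3.3 (lmFit, eBayes; 3.8 prior and 2 residual degrees of freedom). An exact permutation test of 2 against 2 extractions cannot go below p = 0.333.

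The members and the 28 lists were chosen with earlier results of these data known, and 26 lists held a tested gene. After values were seen, 5 genes caught by a name prefix without belonging to the family were removed from lists. In fits leaving out an array, removing the dye effect from every array left without its swap partner was also chosen after the counts were seen. Those fits were first run correcting the unswapped sevS11 array alone, and both versions are given. Named genes were sev, every gene that passed, the 20 largest differences in each direction among genes whose arrays did not overlap and that had at least 2 arrays with a value a genotype, and up to 4 members of each list by lowest p. Other list members are named as examples. The extraction numbers do not pair the genotypes (correlation of deviations -0.065). In 20 simulated data sets of 3586 genes with 200 changed, the fit found 58.8% of log2 changes of 1 and 89.5% of those of 2, with 3.31% false calls. Those sets had independent noise of the same spread in both genotypes. In the data the median absolute difference between extractions was 0.258 in sevS11 and 0.089 in sevd2. The number of changed genes is also unknown, so these shares are not the power of the comparison.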

Additional observations from a re-analysis of the deposited data

Results flagged for a closer look

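The lower value of CG5592 on sevd2 replicate 3, -0.4138, stood apart from the other sevd2 arrays of that gene, which lay between -0.1181 and -0.0594. The gap made up 0.834 of the range of the 4 arrays, above Dixon's critical value for 4 values. Of 81 named genes with 4 sevd2 values this was 1, and chance alone flags about 1 in 20. The difference of CG5592 between the genotypes was -0.95 ± 0.15 (limma, adjusted p = 0.115).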

How the results depend on the processing

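The count of 2 passing genes rested on the spread between 2 extractions a genotype and moved with nearly every choice; the causes were not tested. It became 1 without the dye correction, with the sevS11 pair's dye effect, with centred arrays, in a robust fit, with the looser gene filter and per probe, and 0 for genes on all arrays (limma, 287 at an unadjusted p under 0.05). It was 38 in the array-level fit, 27 with scaled arrays, 23 with quantile normalisation and 24 at an adjusted p under 0.1. With a replicate block on the extraction number the count was 85 (43 higher, 42 lower), and the numbers do not pair the extractions. Leaving out single arrays or extractions gave counts from 1 to 1516. The 1516 came from leaving out sevS11 replicate 3, the whole of extraction 2, and 346 from leaving out sevS11 extraction 1. The lone extraction is then assumed to vary like sevd2. Without sevd2 extractions 1 and 2 there were 4 and 28, and without sevd2 replicates 1 to 4 and sevS11 replicates 1 and 2 there were 1, 6, 1, 1, 2 and 1. With only the unswapped sevS11 array corrected, the version run first, these 6 counts were 2, 8, 1, 14, 2 and 17.

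PPO2 passed in every alternative that tested it, at 2.47 to 2.92; it was not tested for genes on all arrays or without sevd2 replicate 4. Besides the settings and arrays named in the report, the PPO1 call ended with centred arrays (2.13), in a robust fit, for genes on all arrays, with the looser filter and per probe (2.10 in each). In the version run first it held without sevd2 replicate 1 and without sevS11 replicate 2, and ended without sevd2 replicate 3 (1.97). Of 3020 recomputed values of the 109 named genes, 3000 kept their direction and 20, in 11 genes, did not. The looser threshold, the robust fit and the replicate block cannot change a difference. Leaving out sevS11 replicate 3 is the same fit as leaving out sevS11 extraction 2. Many named genes were also picked for separate arrays or a low p in these data. A kept direction is therefore no independent support. Dll turned with scaled arrays (-0.026) and quantile normalisation (-0.014), and cher with quantile normalisation (0.023). The other reversals came from leaving out an array or extraction, where usp ranged from -0.60 to 0.10, ey from -0.017 to 0.40, Gli from -0.41 to 0.074, loco from -0.62 to 0.19, Dll from -0.0048 to 0.28, cher from -0.22 to 0.024, br from -0.45 to 0.15, danr from -0.61 to 0.30, repo from -0.47 to 0.20, msn from -0.26 to 0.17 and dan from -0.16 to 0.85.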

Other observations

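Some genes could not be compared because a genotype had no value. There were 107 genes with a value on all 3 sevS11 arrays and on no sevd2 array, and 6 the other way round. What the authors' filter removed is not given in the sources used here, so a missing value is not a low level. Of the 107 genes, those farthest from the pool on every sevS11 array, chosen after their values were seen, were the cuticle protein gene Cpr57A (-1.02, -0.78 and -2.19), the DNA demethylase family gene Tet (-0.73, -0.74 and -0.81) and the glutathione S-transferase gene GstZ2 (0.69, 0.72 and 1.00).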
